A study of Homo sapiens with 2 samples.

Results

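The regions described here are the accessible chromatin regions that begin within the first 3 Mb of chromosomes 1 to 12, 18 and 20 (hg19), which is the outer end of the short arm of each of these 14 chromosomes. They were chosen by position alone. They number 970 of 55124 regions in the control list and 734 of 41540 in the knockdown list, or 1.76% and 1.77%, and 1704 of 96664 over both lists. The assay was ATAC-seq, which uses a transposase to cut and tag open DNA, and the cells were Z-138, an established line of mantle cell lymphoma, a cancer of mature B cells. The library called control here carried a control shRNA, and the library called knockdown carried an shRNA against SMARCA4. Doxycycline was given to both cultures per the labels, which name neither its dose nor its duration, and the deposited peak names of both libraries contain DMSO. There was 1 library in each group. No test between the groups is therefore possible, and whether any difference exceeds the spread between cultures cannot be judged. The labels do not say whether the cells were 1 clone or a pool, and a peak list does not show how far SMARCA4 itself was reduced.

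SMARCA4 is an ATPase that drives SWI/SNF complexes, which slide or evict nucleosomes so that transcription factors can reach enhancers and promoters. The ends of human chromosomes carry telomere repeats, then duplicated subtelomeric blocks that short reads map to poorly, and then, on many arms, gene-dense and GC-rich DNA. Well-known genes lie toward the short-arm ends of the chromosomes used: IRF4, a transcription factor of mature B cells and plasma cells, on chromosome 6; TERT, the catalytic subunit of telomerase, on chromosome 5; SMARCA2, the other ATPase of SWI/SNF, on chromosome 9; and TYMS, the enzyme that makes thymidylate, on chromosome 18. An hg19 annotation and sequence were not used here, so no region below is assigned to a gene and no base sequence is given.

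Depth was recovered from the deposited fold and p-value of each peak, which determine both the summit pileup (how many reads overlap the summit) and the background expected there. The knockdown library had 1.42 times the read number of the control, and its genome-wide expected background at a summit was 1.34 times as high. That ratio of 1.34 is used below as the one that depth gives. Its use for summits assumes that the same share of reads falls in open regions in both libraries, which was not tested. The lowest called summits had 3 control reads and 4 knockdown reads. Absence from a list means only that a position did not reach the limit of the peak caller. Intervals below are 95% and cover counting error only. Regions that lie near each other are not independent, and reads amplified by PCR are not independent molecules.

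Regions were denser at the short-arm ends than further in, in both libraries. The control list held 23.1 regions per Mb in the first 3 Mb and 18.7 per Mb from 3 to 10 Mb of the same chromosomes (970 against 1836 regions), a ratio of 1.23 (1.14 to 1.33). The knockdown list held 17.5 and 13.7 per Mb (734 against 1338), a ratio of 1.28 (1.17 to 1.40). In steps of 1 Mb from the chromosome start, control density went from 25.9 to 23.6 to 19.8 per Mb and knockdown density from 19.7 to 18.5 to 14.2. The outermost Mb was thus the densest of the 3 in both lists. From 3 to 10 Mb the control varied between 14.4 and 24.9 per Mb, so the third Mb was within the range of the steps that follow it. The knockdown varied there between 10.6 and 19.7 per Mb, and none of its 3 outer steps lay above that range. Its outermost Mb, with 276 regions, equalled the highest of those steps, from 6 to 7 Mb, also with 276.

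**Figure D1:**
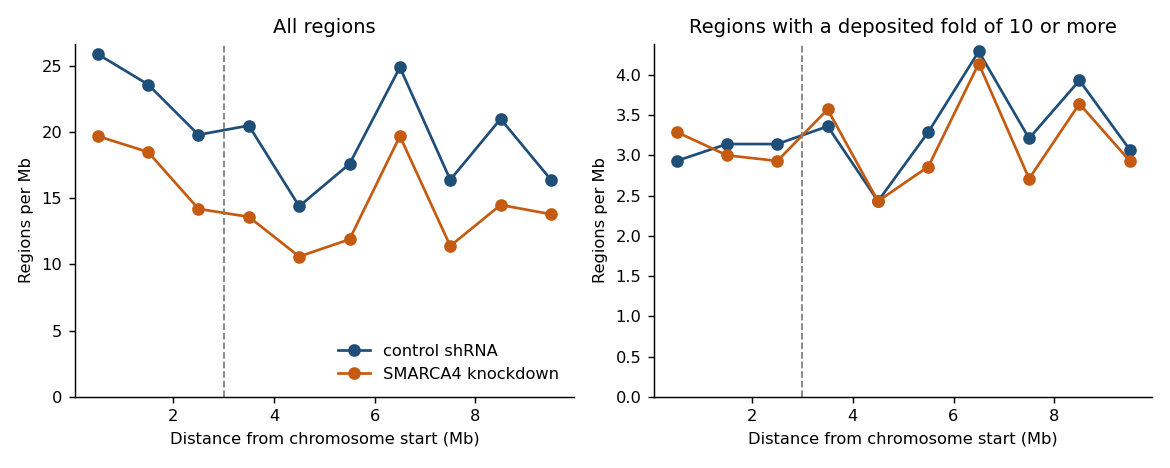
Regions per Mb (y axis) in steps of 1 Mb from the chromosome start (x axis), summed over 14 chromosomes, for all regions (left) and for those with a deposited fold of 10 or more (right). Each point is 1 library, and the dashed line marks 3 Mb. All regions fall from 25.9 to 19.8 per Mb in the control over the first 3 Mb, while the strong ones stay between 2.93 and 3.14.

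The density was uneven among the chromosomes. Chromosome 7 had the most control regions, 122 or 40.7 per Mb, followed by chromosome 11 with 33.7, chromosome 4 with 32.3 and chromosome 1 with 29.3 per Mb. Chromosome 8 had the fewest, 34 or 11.3 per Mb, and chromosome 2 had 14.7. The order was much the same in the knockdown, where chromosome 7 had 30.7, chromosomes 1 and 4 had 28.3 each, and chromosome 8 had 7.67 per Mb. The first 3 Mb were denser than the next 7 Mb on 9 of 14 chromosomes in the control and 8 of 14 in the knockdown, 8 of them in both.

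Chromosome 5 stood apart by a stretch without regions that began inside the outer zone. Its first 3 Mb held 25 control regions per Mb, near the average of the 14, but from 3 to 10 Mb it held 6 per Mb. No control region began between those that begin at 2038682 and 4725908. In the knockdown none began between those at 2038673 and 5026051. Its outer regions thus lay almost wholly before the third Mb. The ratio was 4.17 (2.82 to 6.23) in the control and 5.10 (3.18 to 8.36) in the knockdown. On chromosomes 1, 4, 7 and 9 the ratios lay between 1.52 and 1.77 in the control and between 1.60 and 2.13 in the knockdown, with intervals above 1. Chromosome 11 had 1.33 (1.03 to 1.71) in the control and 1.24 (0.908 to 1.68) in the knockdown. The opposite order was seen on chromosome 8, at 0.645 (0.428 to 0.95) in the control and 0.647 (0.389 to 1.04) in the knockdown, and on chromosomes 2, 3, 6 and 20, whose intervals included 1. The summed ratio remained above 1 when any 1 chromosome was left out, from 1.16 to 1.28 in the control and from 1.20 to 1.33 in the knockdown.

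**Figure D2:**
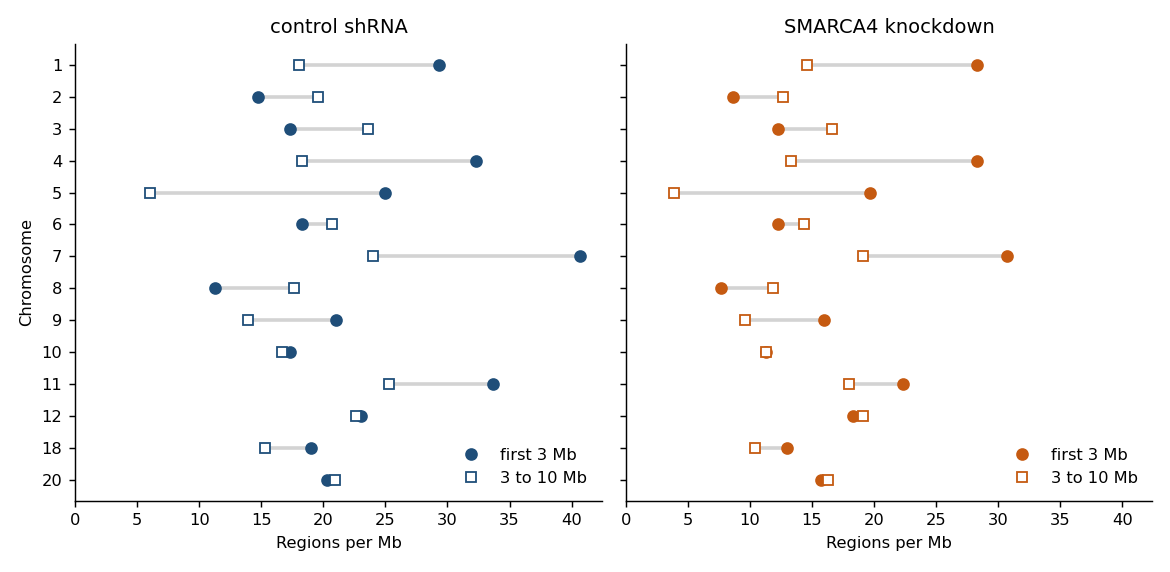
Regions per Mb (x axis) on each chromosome (y axis) in the first 3 Mb (filled circles) and from 3 to 10 Mb (open squares), in the control (left) and the knockdown library (right). Chromosome 5 has the widest gap, with 25 against 6 control regions per Mb, and chromosomes 2, 3, 6, 8 and 20 have the reverse order in both lists.

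The background around the control regions was higher in the first 3 Mb than from 3 to 10 Mb, but not higher than on all chromosomes. The median expected background was 43.0 reads per 10 kb in the control (interval 41.0 to 46.0), against 39.0 (37.0 to 41.0) from 3 to 10 Mb. In the knockdown it was 62.0 (58.0 to 67.0) against 57.0 (54.0 to 60.0), with overlapping intervals. Over all chromosomes it was 44.0 and 64.0, and the outer value was above the inner one on 10 of 14 chromosomes in the control and 8 of 14 in the knockdown. Chromosome 7 had 62.0 and chromosome 1 had 51.0 reads per 10 kb in the control, and chromosome 2 had 28.0. Read number varies with copy number, mappability and open chromatin alike, and the part of each in the density was not tested.

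The surplus consisted of regions of low and middle enrichment. The authors' fold compares the summit with its expected background in the same library. At a fold from 5 to 10 the control held 13.5 regions per Mb against 9.99 further in, a ratio of 1.35 (1.22 to 1.50), and the knockdown 11.7 against 8.76, a ratio of 1.34 (1.20 to 1.50). Below a fold of 5 the ratios were 1.21 (1.04 to 1.40) and 1.57 (1.23 to 2.0). At a fold of 10 or more there was no surplus: 3.07 per Mb against 3.37 in the control, a ratio of 0.912 (0.738 to 1.12), and 3.07 against 3.18 in the knockdown, a ratio of 0.965 (0.780 to 1.19). Strong regions, 129 in each list, therefore made up a smaller share of the regions.

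Of the control regions 13.3% (11.2 to 15.6%) had a fold of 10 or more, where 18.7% of all control regions had one and 18% of those from 3 to 10 Mb. In the knockdown the share was 17.6% (14.9 to 20.5%), where 23.1% of all regions had such a fold and 23.3% of those from 3 to 10 Mb. The difference between the zones was -4.67 percentage points (-7.38 to -1.84) in the control and -5.74 points (-9.23 to -2.09) in the knockdown. Without chromosome 7 the control difference was -2.94 points (-5.82 to 0.111), an interval that includes 0, and without chromosome 11 it was -3.09 (-5.97 to -0.0549). On chromosome 7 only 7.38% of the outer control regions reached that fold against 26.8% further in, and on chromosome 11 these shares were 4.95% and 23.7%. Chromosome 4 had the reverse order, with 21.6% against 10.9%. The share was smaller at the end on 9 of 14 chromosomes in the control, on 10 in the knockdown and on 7 in both. Since a fold falls as its background rises, the recovered summits were compared as well: those of 20 reads or more made up 4.8 points less of the outer than of the inner control regions (difference -4.8, -6.91 to -2.55), and the knockdown difference was -4.05 points (-7.22 to -0.711).

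Medians moved little. The median fold was 6.28 in the control (6.10 to 6.45) against 6.40 further in (6.20 to 6.45), and 6.68 in the knockdown (6.37 to 6.84) against 7.14 (6.84 to 7.39). Median summit pileup was 8 control reads and 10 knockdown reads, in both zones. The median width was 169 bp in the control (162 to 177) against 163 bp (156 to 169). In the knockdown it was 185 bp (174 to 194), against 166 bp (160 to 173) further in and 163 bp over the whole list. The outer knockdown regions were wider than the inner ones on 10 of 14 chromosomes by their median, and so were the control regions.

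Very wide regions did not follow the median. Regions of 600 bp or more, a width that spans several nucleosomes, made up 3.54% of outer knockdown regions (26 of 734; 2.33 to 5.15%), where 4.85% of all knockdown regions were that wide and 6.35% of those from 3 to 10 Mb (85 of 1338). The difference between the zones was -2.81 points (-4.63 to -0.821), and against 10 to 17 Mb it was -1.24 points (-2.93 to 0.648), within counting error. In the control the shares were 1.96% (19 of 970; 1.18 to 3.04%), 2.68% and 3.05%, with a difference of -1.09 points (-2.22 to 0.193) that does not exceed counting error.

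**Figure D3:**
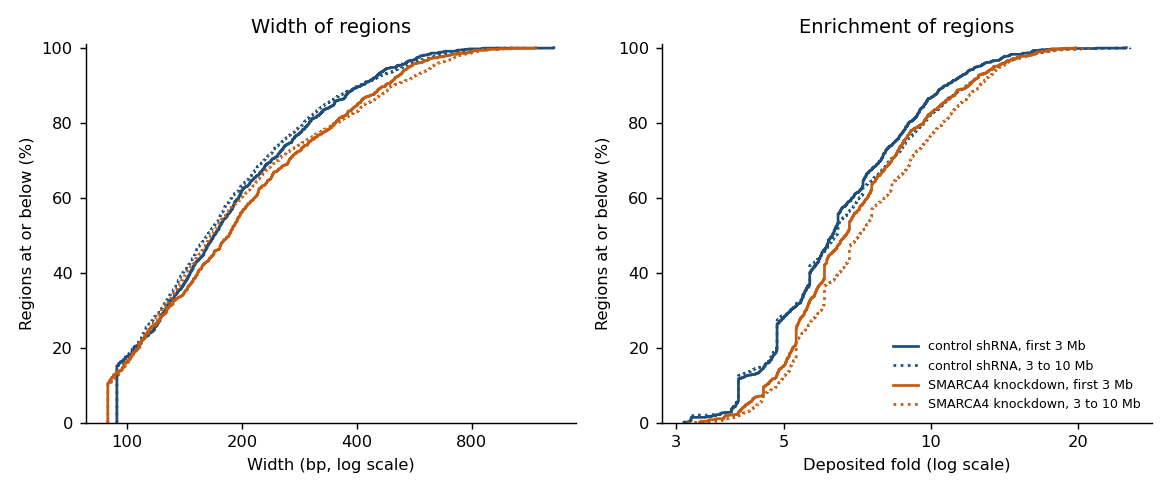
Cumulative share of regions (y axis, %) by width (left, bp, log scale) and by deposited fold (right, log scale), for the first 3 Mb (solid) and 3 to 10 Mb (dotted) in the control (blue) and knockdown (orange) lists. The solid knockdown curve for fold lies left of the dotted one (medians 6.68 and 7.14), and the width curves share a first quartile of 115 bp in the knockdown and part above it (medians 185 and 166 bp).

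The outer regions lay closer together, a measure that is not separate from their higher density. The median distance to the nearest region of the same list was 8.67 kb in the control (7.49 to 9.76), against 12.1 kb (11.1 to 13.1) from 3 to 10 Mb. In the knockdown it was 9.24 kb (7.78 to 11.3) against 15.6 kb (13.9 to 17.4). Over all regions it was 11.9 kb in the control and 13.8 kb in the knockdown. Of the outer control regions 340, or 35.1%, had another within 5 kb, against 28.8% further in, a difference of 6.29 points (2.67 to 9.96). The share over all control regions was 30.0%. Regions with no other within 100 kb were few, 20 or 2.06% in the control and 24 or 3.27% in the knockdown. These shares were 3.98% and 6.88% further in, and 3.44% and 6.14% over all regions.

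The 4 widest outer regions of each list were all present in both. The widest control region, on chromosome 2 from 676260 to 677571, spanned 1312 bp with a fold of 9.53 and 33 reads at its summit; it overlapped 2 knockdown regions, and the one it shared most with had 1017 bp and 42 reads. On chromosome 7 the control region from 915840 to 916698 had 859 bp and 18 reads, and its knockdown partner 814 bp and 24 reads. On chromosome 11 the region from 695001 to 695786 had 20 reads in the control, and its partner, of 944 bp, had 25 in the knockdown. The depth-scaled log2 ratios of these 3 were -0.08, -0.01 and -0.10. The control region from 1058553 to 1059402 on chromosome 12, of 850 bp, overlapped 2 knockdown regions and had 16 reads against 25 in the one it shared most with, a ratio of 0.22. The widest knockdown region, of 1176 bp on chromosome 6 from 291684 to 292859, overlapped 2 control regions and had 22 reads against 24 control reads (-0.55). Another of 879 bp on chromosome 5, from 191163 to 192041, also overlapped 2 and had 20 against 22 (-0.56). Over these 6 wide regions the ratio therefore ran from below to above the value that depth gives.

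The outermost called region of a chromosome lay between 11.6 and 522 kb from its start in the control, with a median of 94.6 kb, and between 11.6 and 248 kb in the knockdown, with a median of 164 kb. On 8 of 14 chromosomes it was the same region in both lists. On chromosome 2 it began at 11601, with a fold of 8.07 and 9 control reads, and its knockdown partner had 5 reads. That of chromosome 4, from 29205 to 29437, had 24 control reads (fold 15.4) and a knockdown partner with 14. That of chromosome 3, from 80181 to 80352, had 26 control reads (fold 16.9) and a partner with 9. In these 3 cases the deeper library had the lower summit. Chromosome 7 showed the other order, with 19 control and 29 knockdown reads at the region that begins at 149038. On chromosome 1 the outermost control region, from 521508 to 521627, had 8 reads and its knockdown partner 7, while the knockdown list held 1 region further out, from 237710 to 237812, with 9 reads and no control partner.

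At the inner limit the 14 control regions that were last before 3 Mb had folds from 4.03 to 13.9 (median 6.94) and the 14 that came next had folds from 4.02 to 24.1 (median 6.64). In the knockdown these ranges were 4.54 to 15 (median 6.95) and 4 to 11.5 (median 7.87).

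The knockdown list was shorter than the control list at the chromosome ends to the same extent as elsewhere. Its 734 regions were 75.7% of the control number (68.7 to 83.4%), against 72.9% (67.9 to 78.2%) from 3 to 10 Mb and 75.4% on all chromosomes. The knockdown had fewer regions on each of the 14 chromosomes. The percentage ran from 59.1% on chromosome 2 (26 against 44 regions) and 65.4% on chromosome 10 (34 against 52) to 87.6% on chromosome 4 (85 against 97) and 96.6% on chromosome 1 (85 against 88). It was above the value from 3 to 10 Mb of the same chromosome on 7 of the 14.

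A partner is a region of the other list that shares at least 1 bp. Of the outer control regions 596, or 61.4% (58.3 to 64.5%), had a knockdown partner, against 59.7% from 3 to 10 Mb, a difference of 1.75 points (-2.07 to 5.52). The 374 without one were 38.6%, where 39.5% of all control regions had none. Of the outer knockdown regions 596, or 81.2% (78.2 to 84.0%), had a control partner, against 81.0% from 3 to 10 Mb, a difference of 0.182 points (-3.42 to 3.63). Those without one were 18.8%, where 20.6% of all knockdown regions had none. Both shares of unpartnered regions are near those of the whole lists. More than 1 partner was found for 19 regions in each direction, or 1.96% of the control regions, where 1.43% of all had several, and 2.59% of the knockdown regions, where 2.73% had.

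Weak regions find a partner less often, and the ends held relatively few strong ones. Averaged over regions of the same fold in the whole list, a control partner share of 58.7% and a knockdown partner share of 77.4% would be given. The observed shares were 2.74 points (-0.404 to 5.82) and 3.85 points (0.828 to 6.61) above these. The control excess was 4.02 points (0.297 to 7.63) for regions below 2 Mb, and its interval also excluded 0 without chromosome 3, 10 or 11 (3.57, 3.75 and 3.32 points). It was 1.22 (-2.16 to 4.53) without chromosome 7, 0.992 (-2.15 to 4.07) by fold and width, and 0.000879 (-3.18 to 3.20) with a reciprocal overlap of 50%. The knockdown excess was within counting error when regions were matched on width as well, at 1.87 points (-1.15 to 4.64), with folds of at least 5, at 0.827 points (-2.80 to 4.22), and with a reciprocal overlap of 50%, at -0.128 points (-3.75 to 3.40). Without chromosome 7 it was 2.88 points (-0.405 to 5.89). Within single chromosomes, the control interval lay above the value given by fold only on chromosome 7. There 83 of 122 regions or 68.0% (59.0 to 76.2%) had a partner against 54.7%. The interval lay below only on chromosome 10, with 26 of 52 or 50% (35.8 to 64.2%) against 65.1%. By summit pileup the values given were 62.2% and 62.6%, and both lay inside these intervals. By fold and width together they were 58.7% and 66.4%, both just outside. The knockdown interval lay above the value given by fold only on chromosome 7, at 87.0% (78.3 to 93.1%) against 76.4%, and on none below. Values given there by summit pileup, 80.4%, and by fold and width, 81.4%, lay inside. With 14 chromosomes in each list, single intervals can miss the given value by counting error alone. Among the 4 densest ends the control partner share was 70.5% on chromosome 1 and 69.1% on chromosome 4, but 54.5% on chromosome 11.

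**Figure D4:**
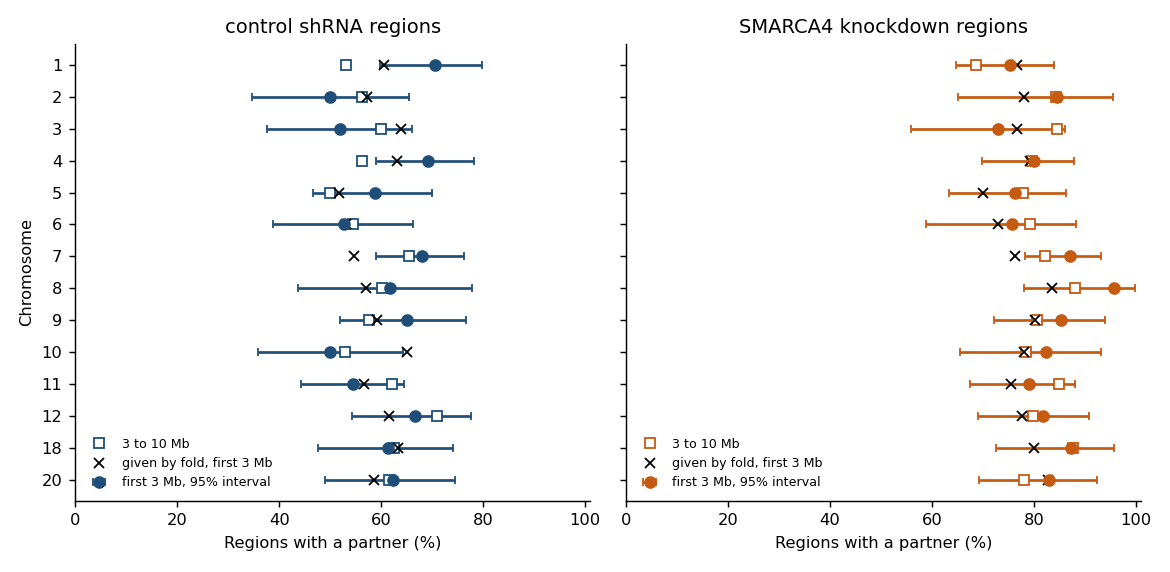
Share of regions with a partner in the other list (x axis, %) on each chromosome (y axis) for control regions (left) and knockdown regions (right). Filled circles are the first 3 Mb with 95% intervals, open squares 3 to 10 Mb, and crosses the share given by fold; on chromosome 7 the control share of 68.0% lies above the cross at 54.7%, and on chromosome 10 the share of 50% lies below the cross at 65.1%.

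Outer regions found in 1 list were weak and narrow, and so were those further in. The 374 control regions without a partner had a median fold of 5, a median width of 123 bp and a median of 6 reads, against 7.31, 220 bp and 10 reads for those with one. Only 6 of the 374 reached a fold of 10, and 0 were 600 bp wide or more. From 3 to 10 Mb the 740 control regions without a partner had medians of 4.84, 118 bp and 6 reads. Of these, 15 reached a fold of 10 and 0 were that wide. The knockdown regions without a partner had medians of 5.30, 111 bp and 7 reads, and 1 of them reached a fold of 10.

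Chromosome 10 held the strongest control region without a partner, from 363227 to 363497, at a fold of 14 and 18 reads; the nearest knockdown region was 133 kb away. It was also the strongest outer control region of its chromosome. Second came a chromosome 3 region from 2608081 to 2608290, at a fold of 13.8 and 20 reads, 80.6 kb from a knockdown region. Multiplied by the depth ratio, these summits would be 24.2 and 26.8 knockdown reads. Both regions were chosen for a high control fold, so high scaled values follow from that choice. Why they had no partner was not tested. Chromosome 9 held one from 2053978 to 2054151 (fold 10.7, 13 reads), and chromosome 18 held 2, from 1578641 to 1578799 (fold 10.6, 15 reads) and from 874021 to 874276 (fold 10, 13 reads). Another on chromosome 10, from 2742895 to 2743083, reached a fold of 10.1 and 13 reads. These 6 lay on 4 chromosomes, between 7.16 and 133 kb from any knockdown region.

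Chromosome 8 held the strongest knockdown region without a partner, from 2075669 to 2075847, at a fold of 13.2 and 17 reads; a control region lay 28.7 kb away. The others had folds from 8.49 to 9.08. They began at 741997 on chromosome 18, with 11 reads, at 2082660 on chromosome 20, with 16 reads and a control region 0.174 kb away, and at 1397340 on chromosome 6, with 11 reads. The remaining 2 began at 1315893 on chromosome 5, with 14 reads, and at 893852 on chromosome 3, with 13 reads. Divided by the depth ratio, the 6 summits would be 8.20 to 12.7 control reads, but these regions were likewise chosen for a high fold in their own list.

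At outer regions present in both lists, summits in the knockdown were higher in reads but lower than depth would give. Median summits of the 596 pairs were 10 control reads and 11 knockdown reads; the knockdown had more reads in 356 pairs, fewer in 195 and as many in 45. The median depth-scaled log2 ratio (knockdown over control) was -0.23 (-0.28 to -0.16), against -0.24 (-0.28 to -0.20) over 1096 pairs from 3 to 10 Mb and -0.25 over all pairs. When local reads, in the surrounding 10 kb, set the scale instead, the median was -0.14 (-0.18 to -0.09; 495 pairs). It was -0.14 over 847 pairs from 3 to 10 Mb and -0.13 over 27933 pairs of all chromosomes. Pairs with either background at the genome-wide value were left out of these medians. Both the scale and the set of pairs therefore differ from the depth-scaled medians. By chromosome the depth-scaled median ran from -0.62 on chromosome 10 and -0.53 on chromosome 3 to 0.02 on chromosome 20 and 0.05 on chromosome 8, with 21 to 83 pairs each. Chromosome 10 also had the lowest background ratio of the 14, at -0.36 on the log2 scale. That background counts reads of the same library in the surrounding 10 kb, those of the region itself included. Summits and background are therefore not independent, and the part of background in the lower summits was not tested.

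Summits at least 2-fold lower than depth would give were found at 74 of the 596 pairs, or 12.4% (9.88 to 15.3%), where 11% of all pairs were. Summits at least 2-fold higher were found at 6, or 1.01%, where 1.36% of all pairs were. These shares are near those of the whole list. Of the 6 that were higher, 3 involved a region that overlapped more than 1 region of the other list.

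**Figure D5:**
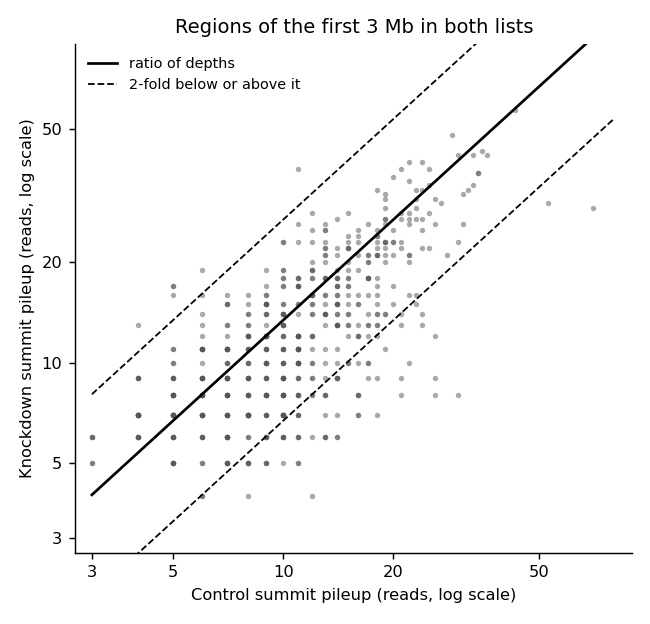
Summit pileup in the knockdown (y axis, reads, log scale) against the control (x axis, reads, log scale) at the 596 control regions of the first 3 Mb with a partner; each point is 1 pair. The solid line is the ratio of 1.34 that depth gives, and 74 points lie on or below the lower dashed line, 2-fold under it, against 6 on or above the upper one.

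The strongest outer control regions differed widely in their knockdown summits. On each chromosome the outer region of highest control fold was taken, with folds from 11.7 to 25.1 and 18 to 70 reads; 13 of these 14 had a knockdown partner. Chromosome 3 held the highest of all, from 1734807 to 1735142, at a fold of 25.1 and 70 control reads against 29 in the knockdown, a depth-scaled log2 ratio of -1.70. On chromosome 2, the region from 696544 to 696805 had 26 and 8 reads (-2.12), and on chromosome 9 the region from 2657458 to 2657729 had 26 and 12 (-1.54). At these 3 the deeper knockdown library had fewer reads than the control, and each was narrower than 340 bp in the control list. Regions as narrow also had smaller falls. The one on chromosome 20 from 291093 to 291345, of 253 bp, had 20 and 23 reads (-0.22). The one on chromosome 18 from 136441 to 136743, of 303 bp, had a ratio of -0.68.

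Other summits were nearer to what depth would give. The region on chromosome 8 from 681099 to 681558, whose nearest control neighbour was 244 kb away, had 43 control and 57 knockdown reads (log2 ratio -0.02). On chromosome 6 the region from 2245678 to 2246068 had 23 and 31 reads (0.01). On chromosome 5 the region from 271297 to 272029 had 25 and 28 (-0.26), and on chromosome 12 the one from 2921617 to 2922200 had 34 and 37 (-0.30). In between were chromosome 18 from 136441 to 136743, with 31 and 26 reads (-0.68), and chromosome 4 from 331291 to 331760, with 30 and 23 (-0.81).

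Regions taken for a high control value tend by that choice to have lower knockdown values, so the reverse choice is given beside it; it was added after the values had been seen. Of the 13 partnered regions of highest control fold, 12 had a depth-scaled ratio below 0, with a median of -0.61. Of the 14 regions of highest knockdown fold, all had a control partner, 9 were below 0 and 5 above, with a median of -0.04 and a range from -1.25 to 0.30. The lowest of these was again on chromosome 3, from 2077837 to 2078134, with 30 knockdown and 53 control reads. The highest was on chromosome 7 from 2883887 to 2884388, with 48 knockdown and 29 control reads. On 5 chromosomes the same region had the highest fold in both lists.

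Among pairs of 1 region in each list with at least 20 control reads, the lowest ratio, -2.33, was on chromosome 4 from 51532 to 52002, with 30 control and 8 knockdown reads; its knockdown partner was 126 bp wide against 471 bp. The highest ratios among such pairs with at least 20 knockdown reads were 0.78, on chromosome 20 from 825142 to 825312 and on chromosome 6 from 2989116 to 2989552, each with 10 control and 23 knockdown reads. They were chosen after seeing the values.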

How the data were processed

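ATAC-seq peak lists of 2 Z-138 libraries were used, 1 per genotype label. Per the submitters' processing notes, the tools included BWA, MACS2 and bcl2fastq 2.17.1.14, with hg19 as build; their settings, and a version for the first 2, were not given. Each library had its own peak calls, and the deposited peak names of both contain rmdup. The deposited values are a fold (a ratio of summit to expected background), a −log10 p-value, a −log10 q-value, a score (10 times the −log10 q-value without decimals, in all peaks of both lists) and a summit position.

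Peaks on chromosome Y (135 control, 71 knockdown) were left out. No other filter was used. Pileup and background were solved from the deposited fold and p-value as a Poisson tail, giving back −log10 p within 4.15e-05. The solver was also run on values computed from its own results with the same formula. That run cannot show whether the formula is the one the peak caller used. Background above the genome-wide value was whole reads per 10 kb, within 0.02 reads, taking the shortest peak (94 and 89 bp) as extension length.

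Shares have Clopper-Pearson intervals, differences of shares Newcombe intervals, density ratios exact conditional binomial intervals, and medians order-statistic intervals. Shares given by fold used 13 fold bands. Pairs took the partner with the largest overlap. Named regions were the highest control fold per chromosome, the 6 strongest unpartnered and 4 widest per list, and the outermost per chromosome. The members and lists were chosen with earlier results of these data known. Assembly gaps were not subtracted from lengths, and the handling of multiply mapped reads was not given in those notes. Python 3.11.15 with scipy 1.17.1 was used.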

Additional observations from a re-analysis of the deposited data

How the results depend on the processing

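Of 349 values recomputed under alternatives, 323 stayed within the interval of the main value. For each result 14 of these left out 1 chromosome. Such values share most regions with the main value, so their agreement is largely built in. With q-values of at most 1e-05, median widths were 210 and 229 bp, median folds 7.58 and 7.84 (control and knockdown), and the control difference in the share of folds of 10 or more was -7.48 points. With folds of at least 5, the knockdown number was 89.1% of the control, partner shares were 66.6% and 74.4%, the knockdown partner share exceeded that given by fold by 0.827 points, median widths were 199 and 195 bp and median folds 7.26 and 7.16. Fewer, stronger regions enter under both limits. Density ratios were 1.38 and 1.44 in the first 1 Mb, and the median of the chromosomes, added after seeing the data, gave 1.14 in the control and 1.12 in the knockdown. Partner shares were 53.5% and 73.4% with 50% of the region covered, 46.9% and 62.0% with reciprocal overlap of 50%, 65.6% and 86.2% with a gap of up to 500 bp, and 71.8% and 71.3% with lists of equal length, which are nearly equal by construction. Reciprocal overlap turned the knockdown excess over the share given by fold to -0.128 points; the cause was not tested. The control excess ran from 0.000879 points with reciprocal overlap, and 0.172 with the q-value limit, to 4.02 below 2 Mb; its interval excluded 0 there and without chromosome 3 (3.57), 10 (3.75) or 11 (3.32). The log2 ratio at pairs became -0.14 when scaled to surrounding reads, over 495 of the 596 pairs. Leaving out any 1 of the 14 chromosomes moved none of the values recomputed that way out of its interval, but without chromosome 7 the intervals of the control difference in strong regions (-2.94 points) and of the knockdown excess over the share given by fold (2.88 points) included 0. The knockdown excess also included 0 with the q-value limit (3.30 points), with 50% covered (1.86 points) and with lists of equal length (2.48 points), and the knockdown difference in wide regions did so below 1 Mb (-2.73 points) and against 10 to 17 Mb (-1.24 points). The alternatives for the share of strong and of wide regions were chosen after seeing the data. No paired analysis was possible because there was 1 library per group, and for the same reason no library could be left out. Median summits of 6 and 7 reads limit what can be said of regions found in 1 list.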
